A study of Mus musculus with 12 samples.

Results

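The unfolded protein response genes described here are 10 genes, found by symbol among the 23366 gene entries of 12 mouse small-intestine RNA-seq libraries. They are Ern1, Ern2, Xbp1, Dnajb9, Edem1, Hspa5, Herpud1, Atf4, Ddit3 and Creb3l3, and all 10 were present in every library and passed the expression filter. The 12 libraries form 4 groups of 3 biological replicates: embryonic epithelium at E12.5 and at E14.5, adult intestinal stem cells (ISC) and adult enterocytes (AE). All mice were of a mixed C57BL/6 CD1 background. The adult cells came from Lgr5EGFP-Cre-ERT males at postnatal day 60, whose knock-in reports the stem cell gene Lgr5. The sex of the embryos was not given in the labels. Embryonic cells and AE were sorted as EpCAM-positive, CD31-negative, CD45-negative living cells, the AE from a villus fraction. ISC were sorted from crypts for high Lgr5-EGFP fluorescence. Each E12.5 library pooled 20 embryos and each adult library came from 1 gut, while the E14.5 pool size was not given. In all 6 embryonic libraries the age label names the other stage than the title. Every comparison that involves E12.5 or E14.5, also those with adult groups, therefore rests on the titles.

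The unfolded protein response adjusts the folding capacity of the endoplasmic reticulum to its load of secreted and membrane proteins. Its sensors sit in the reticulum membrane: IRE1, encoded by Ern1 and in gut and airway epithelium also by Ern2, splices Xbp1 mRNA into an active transcription factor, PERK slows translation and favours ATF4, and ATF6 is cut by proteases to release a transcription factor. Secretory cells of the gut, goblet and Paneth cells above all, depend on this system, and Creb3l3 encodes a membrane-bound factor of the liver and small intestine that acts on apolipoprotein and lipid genes.

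Promoter sequences are shown first because a pair of the members carries the classical response element that XBP1 and ATF6 read, called ERSE, or its shorter form, ERSE-II. The 250 bases before the RefSeq start site (build GRCm38.p6) were available for 9 of the 10 members, and Ern2 was not among them. The Hspa5 window, chr2:34771840-34772089 on the plus strand, held 1 exact ERSE match, 65 to 47 bases before the start. The Herpud1 window, chr8:94386179-94386428 on the plus strand, held 1 exact ERSE-II match 52 to 42 bases before the start. It also held 1 match to the ATF4-type element CARE on the opposite strand, 112 to 105 bases before the start. Capitals mark the matches, and both sequences run 5′ to 3′ along the gene's strand.
Hspa5: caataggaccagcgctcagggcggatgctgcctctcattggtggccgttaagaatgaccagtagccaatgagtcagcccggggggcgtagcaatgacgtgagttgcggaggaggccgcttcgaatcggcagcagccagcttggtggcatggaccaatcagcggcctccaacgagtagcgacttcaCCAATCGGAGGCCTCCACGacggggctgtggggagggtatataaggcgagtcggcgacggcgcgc
Herpud1: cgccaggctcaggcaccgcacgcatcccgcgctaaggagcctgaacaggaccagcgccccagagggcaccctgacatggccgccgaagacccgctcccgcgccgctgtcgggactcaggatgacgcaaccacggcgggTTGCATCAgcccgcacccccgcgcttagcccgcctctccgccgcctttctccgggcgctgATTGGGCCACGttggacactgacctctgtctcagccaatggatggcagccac

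The letters searched, on both strands, were CCAAT and CCACG with any 9 bases between them for ERSE, ATTGG and CCACG with any 1 base between them for ERSE-II, TGACGTGG for the UPRE, TGATGNAA for CARE and TGACGTCA for the cyclic AMP element. Of 32851 RefSeq promoter windows of the same length, 0.113% held ERSE, 0.0304% ERSE-II, 0.563% the UPRE, 3.45% CARE and 1.55% the cyclic AMP element. In the windows of Xbp1, Ern1, Edem1, Atf4, Ddit3, Dnajb9 and Creb3l3, which has 2 annotated starts, none of these letters was found. CCACG also begins the reverse complement of the UPRE, so matches of these elements can overlap. Of 91 other genes of the endoplasmic reticulum, in 5 lists, 76 had a promoter window and 9 held an exact ERSE. With Hspa5 that makes 10 genes and 11 matches, printed here because these genes are compared as a set later. The capitals mark the arms of the element, and each match is written in the direction of the element, so that those of Calr, Creld2, Derl3, Ero1lb and the nearer one of Hsp90b1 lie on the strand opposite to the gene.
Calr: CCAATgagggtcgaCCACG
Canx: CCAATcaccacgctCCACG
Creld2: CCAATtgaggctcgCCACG
Derl3: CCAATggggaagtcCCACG
Dnajc3: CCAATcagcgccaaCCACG
Ero1lb: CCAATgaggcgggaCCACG
Hsp90b1, farther match: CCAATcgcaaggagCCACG
Hsp90b1, nearer match: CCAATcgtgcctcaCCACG
Hspa5: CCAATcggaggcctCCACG
Pdia6: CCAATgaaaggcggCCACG
Syvn1: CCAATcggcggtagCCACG

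Gene counts per library ran from 12587626 to 45190749, and levels are given as counts per 1000000 (CPM) scaled by the trimmed mean of M values. Fold changes, their standard errors (SE) and adjusted p-values come from 1 edgeR quasi-likelihood fit of the 12 libraries, Benjamini-Hochberg adjusted over 15342 genes, and a change was called at an adjusted p under 0.05. Multi-aligned reads took 3.06% to 5.96% of each E12.5 and ISC library but are listed at 0 in every E14.5 and AE library. The comparisons inside this divide are those of ISC with E12.5 and of AE with E14.5. In the other 4 comparisons, a processing difference that follows the divide and the group cannot be told apart. All 8 epithelial markers were present in every group, with mean Epcam levels of 483 ± 46.9, 854 ± 20.4, 1043 ± 49.7 and 1603 ± 406 CPM from E12.5 to AE (SD, n = 3, as throughout). Lgr5 was highest in ISC, at 508 ± 39.6 CPM against 23.3 ± 3.2 in AE. The libraries labelled enterocyte also held goblet cell RNA, with the mucin gene Muc2 at 7967 ± 1579 CPM. The Paneth cell gene Lyz1 had 2848 ± 734 CPM in ISC and 3772 ± 2142 in AE, against 8.52 ± 0.756 in E14.5. AE replicate 1 stood apart, with a sum of 38489 CPM over 10 enterocyte markers against 81878 and 89697 in the other AE libraries. Its Lyz1 level was 6245 CPM, against 2577 and 2494 in the others.

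Most of the 10 genes were lowest in the embryo and highest in AE. At E14.5 against E12.5, 4 of the 10 rose and 0 fell, where 49.2% of all genes tested were called (23.6% higher and 25.6% lower). At ISC against E14.5, 6 rose and 0 fell, beside 60.7% called over all genes (30.2% higher and 30.6% lower). At AE against ISC, 8 rose and 0 fell, beside 67.8% called (32.6% higher and 35.2% lower). The median log2 change of the 10 genes was 0.20, 0.96 and 0.92 at these steps, where that of all genes was -0.02, -0.00 and -0.05. The libraries of both groups did not overlap for 5, 9 and 6 of the 10, against 70.6%, 72% and 66.3% of all genes. The steps share their middle groups, so they are not independent of each other. The first count is the least firm: without E12.5 replicate 3, or without E14.5 replicate 2, it was 2. Under upper-quartile scaling, relative log expression scaling and DESeq2, ISC against E14.5 had 6 genes up and 2 down, the lower ones being Hspa5 and Edem1. Under upper-quartile scaling AE against ISC had 7 up and 1 down. That scaling moved the median of all genes at this step by -0.20.

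**Figure D1:**
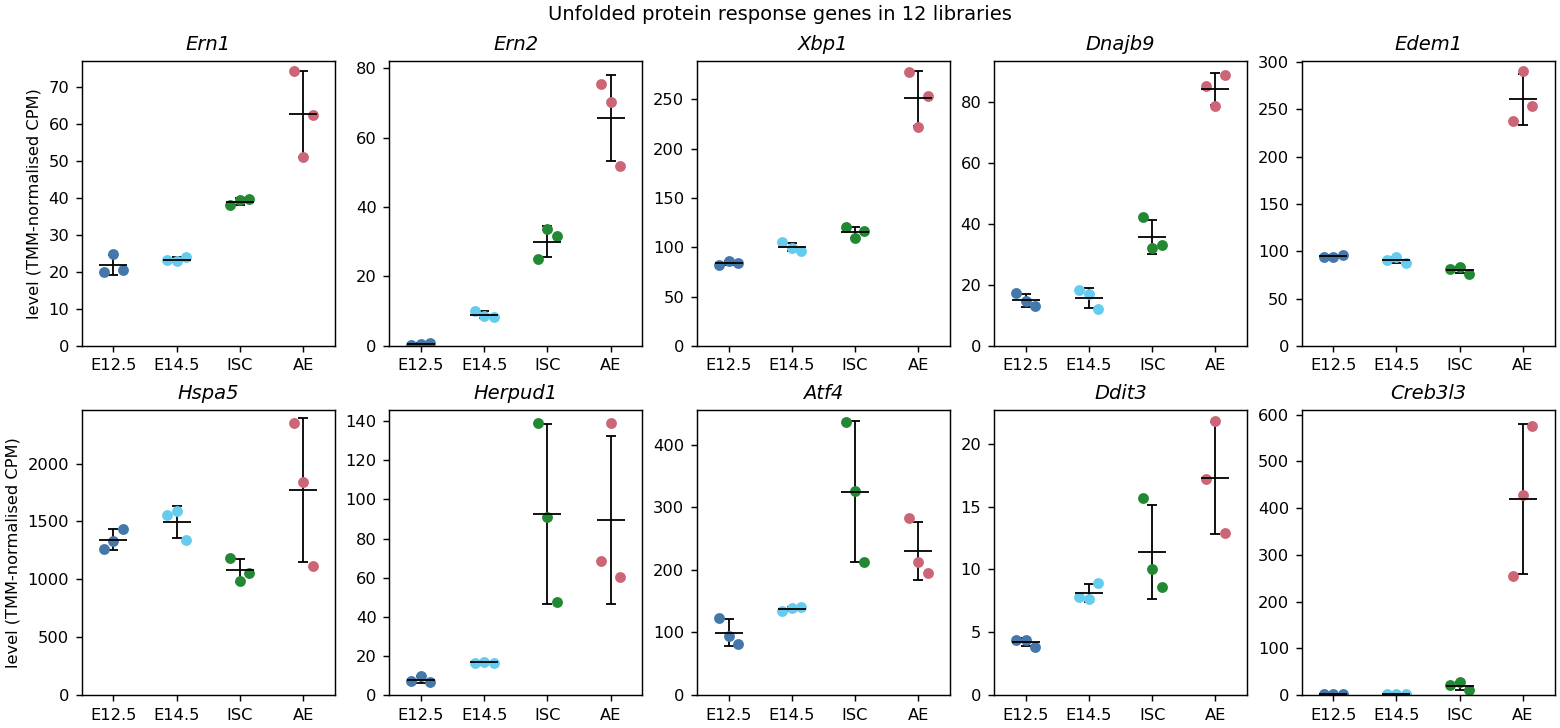
Level of each of the 10 genes (TMM-normalised CPM, linear axes from 0) in the 3 libraries of E12.5, E14.5, ISC and AE. Points are libraries, horizontal bars the mean and error bars the SD. Ern2 and Creb3l3 sit near 0 in E12.5 and reach 65.8 and 419.8 CPM on average in AE, while the Hspa5 values of AE spread from 1117 to 2352.

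**Figure D2:**
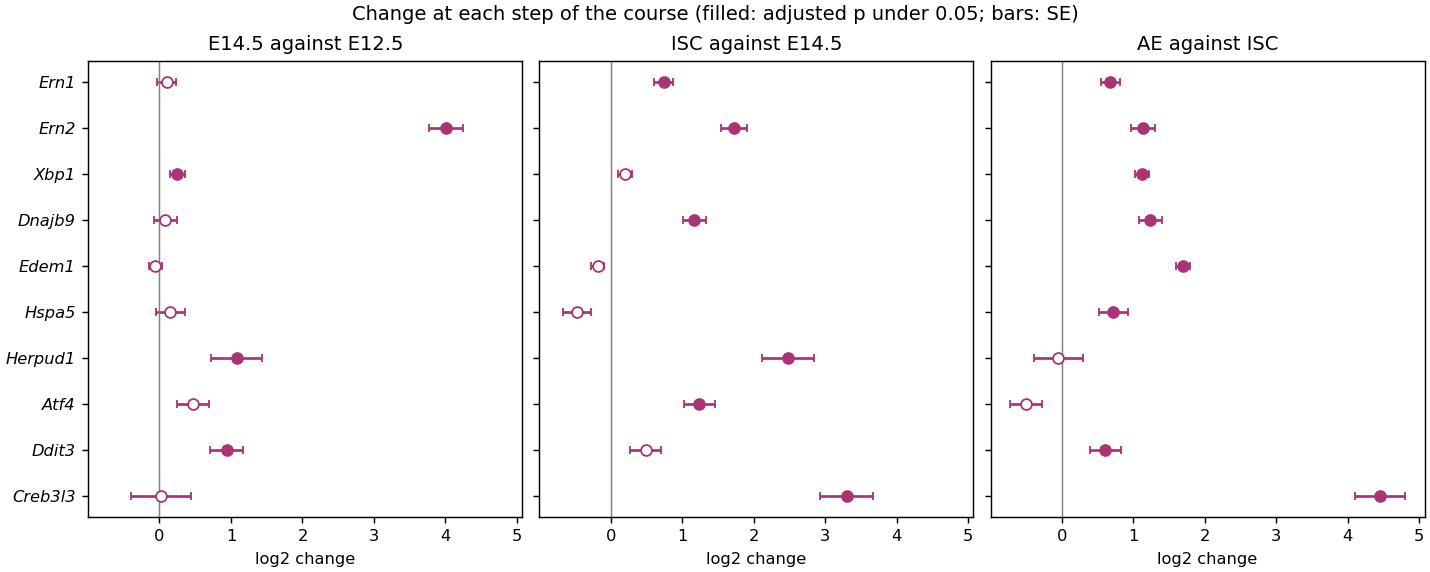
Log2 change of each gene at the 3 steps, with its SE. Filled points passed the test and open points did not. Ern2 has the largest change at E14.5 against E12.5 (4.01) and Creb3l3 at both later steps (3.30 and 4.45).

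Ern1, the IRE1 sensor found in most tissues, was level in the embryo and rose at both later steps. Its levels were 20.0, 24.8 and 20.6 CPM in E12.5 and 23.1, 22.8 and 24.1 in E14.5. They were 38.0, 39.3 and 39.8 CPM in ISC and 74.2, 51.1 and 62.5 in AE. The embryonic stages overlapped, and both adult groups stood above them and apart from each other. The difference between E14.5 and E12.5 did not pass the test (log2 0.10, SE 0.13, adjusted p = 0.563). Ern1 was 1.67-fold higher in ISC than in E14.5 (adjusted p = 0.00026) and 1.61-fold higher in AE than in ISC (adjusted p = 0.000396).

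Ern2, which encodes the IRE1 form of mucosal epithelium, rose at every step. Its E12.5 levels were 0.385, 0.577 and 0.734 CPM, resting on 12, 13 and 20 counts, above the 3 counts taken as the floor. In E14.5 it had 10.0, 8.74 and 8.31 CPM. In ISC it had 25.0, 33.6 and 31.6 CPM, and in AE 75.5, 70.2 and 51.9. No group overlapped with another. The rise was 16.1-fold at E14.5 against E12.5 (log2 4.01, SE 0.24, adjusted p = 3e-08), 3.32-fold at ISC against E14.5 (SE 0.18, adjusted p = 1.15e-06) and 2.2-fold at AE against ISC (SE 0.17, adjusted p = 3.89e-05). From E12.5 to AE it was 117-fold.

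The balance of the IRE1 genes turned towards Ern2 between the embryonic stages. Per base of exon, Ern2 made up 5.12%, 6.12% and 9.06% of the Ern1 and Ern2 signal in the E12.5 libraries. The share was 54.9%, 51.8% and 49.1% in the E14.5 libraries. Among the ISC libraries it was 64.8%, 70.5% and 68.9%, and among those of AE 74.0%, 79.4% and 69.9%. The ranges of ISC and AE overlapped, with AE replicate 3 below ISC replicate 2, and no test was run on the share. The exon lengths, 8157 bases for Ern1 and 2914 for Ern2, come from a later annotation than the one counted. On raw counts alone the share of Ern2 was lower, from 1.89% in E12.5 replicate 1 to 57.9% in AE replicate 2.

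Markers of goblet and other secretory cells moved with Ern2. Of 12, 10 rose at E14.5 against E12.5, 10 at ISC against E14.5 and 11 at AE against ISC, and 0 fell. Over all genes 23.6%, 30.2% and 32.6% rose at these steps. Other epithelial lists rose as well. Of 8 general epithelial markers 7, 6 and 6 rose, and of 10 enterocyte markers 8, 4 and 10. In each of these lists 1 gene fell at 1 step. The summed level of the secretory markers was 28.5 to 44 CPM over the E12.5 libraries and 209 to 251 over those of E14.5. It was 3276 to 5197 CPM over the ISC libraries and 22113 to 35539 over those of AE. Most of the ISC sums was the Paneth cell gene Lyz1, at 2902, 3553 and 2088 CPM. Between the embryonic stages Fcgbp, which encodes a protein of goblet cell mucus, rose from 21.5 ± 8.64 to 153 ± 18.5 CPM. It made up most of the E14.5 sum. Agr2, a disulfide isomerase of goblet cells, rose from 1.65 ± 0.175 to 11.8 ± 0.901 CPM, and Muc2, the main goblet mucin, from 1.29 ± 0.133 to 3.38 ± 0.469. Whether more secretory cells or more Ern2 RNA per cell lies behind the values cannot be told apart in bulk libraries, and the same holds for every change given here. The part of secretory cells in the Ern2 change was not tested.

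Among genes of at least 5 CPM in some group, 5 had the pattern over the 12 libraries most like that of Ern2, by the root mean square difference of centred log2 values. They were P2ry1 (0.35), Atp2a3 (0.38), Sqrdl (0.39), Pon2 (0.40) and Muc13 (0.43), where the median of 12124 genes was 2.28. P2ry1, a receptor for extracellular ADP, had mean levels of 1.34, 10.8, 40.1 and 72.0 CPM from E12.5 to AE. Muc13, a membrane mucin, had 44.4, 432, 1038 and 3098 CPM.

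**Figure D3:**
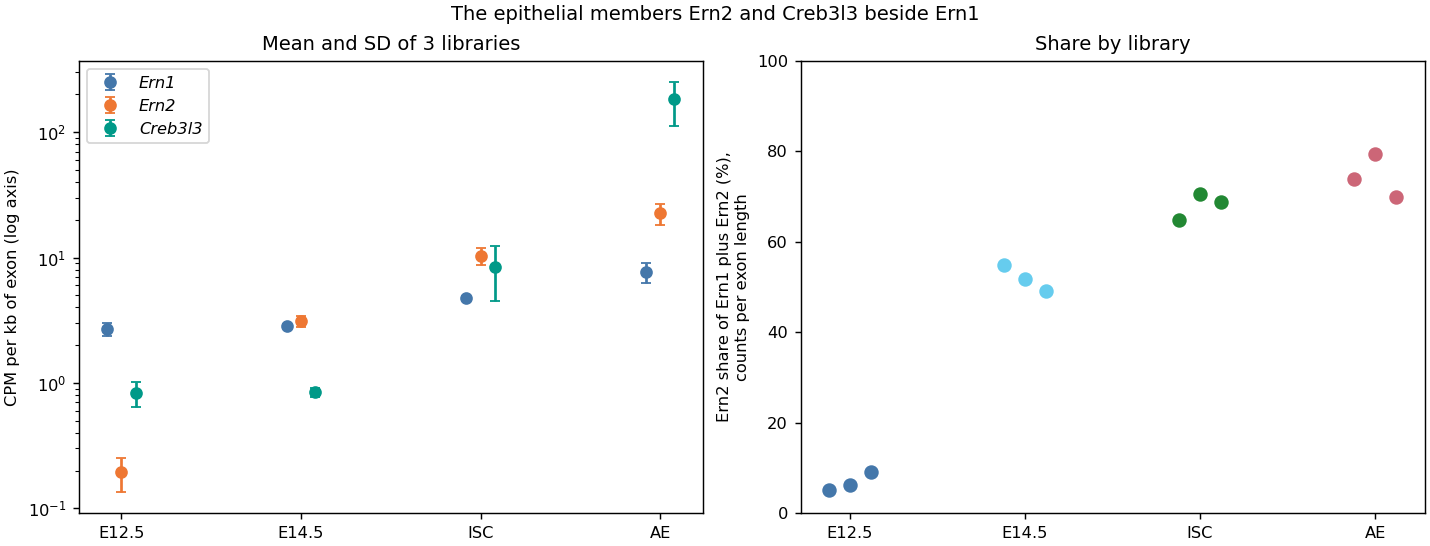
Left, mean and SD over 3 libraries of Ern1, Ern2 and Creb3l3 in CPM per kb of exon, on a log axis. Right, the share of Ern2 in the length-scaled signal of Ern1 and Ern2, by library. The share lies between 5.12% and 9.06% in E12.5 and between 69.9% and 79.4% in AE.

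Xbp1, whose mRNA is the substrate of IRE1, rose in AE by more than at any earlier step. It had 82.3, 86.5 and 83.8 CPM in E12.5 and 105, 99.0 and 96.6 in E14.5. It had 121, 109 and 116 CPM in ISC and 278, 222 and 253 in AE. The 4 groups did not overlap. AE was 2.18-fold above ISC (log2 1.12, SE 0.10, adjusted p = 2.43e-07). E14.5 was 1.19-fold above E12.5 (adjusted p = 0.0477), a call lost in 11 of 19 alternative fits, and the 1.15-fold difference between ISC and E14.5 did not pass the test (adjusted p = 0.0902). The counts per gene do not separate spliced from unspliced Xbp1 mRNA, so they hold no measure of IRE1 activity.

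Dnajb9, a co-chaperone of BiP, and Edem1, which hands misfolded glycoproteins over for degradation, are textbook XBP1 targets, and both were highest in AE. Dnajb9 had 17.3, 14.6 and 13.1 CPM in E12.5 and 18.4, 17.0 and 12 in E14.5. It then had 42.2, 32.1 and 33.1 CPM in ISC and 85.5, 78.7 and 89.1 in AE. The embryonic stages overlapped (adjusted p = 0.726), and the later groups were apart. Dnajb9 rose 2.26-fold at ISC against E14.5 (adjusted p = 2.79e-05) and 2.36-fold at AE against ISC (adjusted p = 1.15e-05).

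Edem1 differed from Dnajb9 in that its ISC levels were the lowest. It had 93.4, 94.2 and 96.2 CPM in E12.5 and 90.7, 93.7 and 87.8 in E14.5. It had 81.0, 83.2 and 76.4 CPM in ISC and 238, 290.2 and 253 in AE. Every AE library stood above all the others. AE was 3.25-fold above ISC (log2 1.70, SE 0.10, adjusted p = 4.71e-09). ISC were 1.18-fold below E12.5 (adjusted p = 0.0377), a call lost with no filter on low counts and in 9 fits that left out 1 library each, and the difference to E14.5 did not pass (adjusted p = 0.119).

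Hspa5 encodes BiP, the main chaperone of the endoplasmic reticulum, and was the most abundant member per kb of exon in all 4 groups, from 287.0 ± 27.2 CPM per kb in ISC to 472.0 ± 165.0 in AE. Its levels were 1261, 1327 and 1438 CPM in E12.5 and 1558, 1588 and 1336 in E14.5. They were 1187, 987 and 1055 CPM in ISC and 2352, 1841 and 1117 in AE. AE replicates 1 and 2 stood above every other library, while AE replicate 3 fell within the range of ISC and below both embryonic groups. AE was 1.65-fold above ISC (log2 0.72, SE 0.20, adjusted p = 0.00633). The difference of AE to E14.5 did not pass (1.19-fold, adjusted p = 0.281), and it turned on single libraries. It was called without AE replicate 3 (log2 0.50, adjusted p = 0.0056) and was at log2 -0.02 without AE replicate 1 (adjusted p = 0.931). The difference of AE to E12.5 (adjusted p = 0.0827) was likewise called without AE replicate 3 (log2 0.67, adjusted p = 0.00058) and was at log2 0.14 without AE replicate 1 (adjusted p = 0.449). ISC were 1.39-fold below E14.5, short of the threshold (adjusted p = 0.0582), and 9 of 19 alternative fits called this difference.

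The 10 genes with an exact ERSE, Hspa5 among them, were mostly higher in AE than in ISC. At that step 8 rose and 1 fell, beside 32.6% and 35.2% of all genes, and Hsp90b1 did not pass (adjusted p = 0.0976). The rise was not particular to genes with this element. Of the 10, 7 come from a list of 21 chaperones, of which 18 rose there. Of all 91 other genes of the endoplasmic reticulum, 59 rose and 10 fell. Dnajc3, which encodes a BiP co-chaperone, rose 2.36-fold (adjusted p = 2.25e-07). Ero1lb, an oxidase for disulfide bonds, rose 3.84-fold, and Syvn1, the ubiquitin ligase of reticulum degradation, rose 1.37-fold. The gene that fell was Derl3, at 1.34 ± 0.396 CPM in ISC and 0.605 ± 0.312 in AE. At ISC against E14.5, 2 rose and 3 fell, beside 30.2% and 30.6% of all genes. At E14.5 against E12.5, 0 rose and 2 fell, beside 23.6% and 25.6%.

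Herpud1, Atf4 and Ddit3 had their highest means in the adult groups, where their replicates were spread. Within ISC the coefficient of variation was 49.5% for Herpud1, 34.3% for Atf4 and 32.8% for Ddit3, beside 46.8% for Creb3l3. Herpud1, a membrane protein of the degradation machinery, had 7.25, 9.9 and 6.53 CPM in E12.5 and 16.3, 17.0 and 16.5 in E14.5. It had 139, 91.0 and 47.5 CPM in ISC and 68.7, 139 and 60.5 in AE. The embryonic groups were apart from each other and below every adult library, and the adult groups overlapped. Herpud1 rose 2.11-fold at E14.5 against E12.5 (SE 0.36, adjusted p = 0.0235) and 5.57-fold at ISC against E14.5 (log2 2.48, SE 0.36, adjusted p = 3.54e-05). The first of these calls was lost with limma-voom and without each of 3 embryonic libraries in turn. AE against ISC did not pass the test (log2 -0.05, SE 0.34, adjusted p = 0.917).

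Atf4, the transcription factor downstream of PERK, had 123, 94.2 and 81.4 CPM in E12.5 and 134, 139 and 140.2 in E14.5. It had 436, 326 and 213 CPM in ISC and 283, 213 and 195 in AE. Both adult groups lay above the embryonic ones and overlapped with each other. The rise at ISC against E14.5 was 2.36-fold (log2 1.24, SE 0.22, adjusted p = 0.000265). The 1.41-fold lower mean in AE than in ISC did not pass (adjusted p = 0.061) and was called in 5 of 19 alternative fits. ATF4 is controlled largely by translation, which these counts do not measure.

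Ddit3 encodes CHOP, a target of ATF4 known for its role in cell death under stress. It had 4.36, 4.4 and 3.85 CPM in E12.5 and 7.77, 7.61 and 8.96 in E14.5. It had 15.7, 10.0 and 8.57 CPM in ISC and 17.2, 21.8 and 12.9 in AE. The embryonic stages were apart, and each later group overlapped with the one before it. Ddit3 rose 1.92-fold at E14.5 against E12.5 (adjusted p = 0.00393) and 1.53-fold at AE against ISC (adjusted p = 0.0254). The second of these calls was lost under upper-quartile scaling, in a fit of the pair of groups alone and without each of 3 adult libraries in turn. The 1.4-fold difference between ISC and E14.5 did not pass (adjusted p = 0.0732).

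Stress and dissociation genes had the same order of ISC replicates as Herpud1, Atf4 and Ddit3, while their calls in the main fit differed in part. The 8 immediate-early and heat shock genes Fos, Jun, Egr1, Ier2, Hspa1a, Hspa1b, Dnajb1 and Hsph1 summed to 995, 737 and 848 CPM in E12.5 and to 1005, 1027 and 1142 in E14.5. The sums were 7355, 5493 and 4626 CPM in ISC and 2869.8, 1637 and 1642 in AE. Of the 8, 0 rose and 0 fell at E14.5 against E12.5, beside 23.6% and 25.6% of all genes, where Herpud1 and Ddit3 rose. That count depended on the fit. In a fit of this pair of groups alone 4 rose and 1 fell. With a replicate block, and in some fits that left out 1 library, 1 rose. All 8 rose at ISC against E14.5, as Herpud1 and Atf4 did, beside 30.2% of all genes. At AE against ISC, where Ddit3 rose, 6 of the 8 fell, beside 35.2% of all genes. Within ISC all 8 were highest in replicate 1 and lowest in replicate 3, and so were Herpud1, Atf4 and Ddit3 but no other member. This order was not particular to stress genes. The epithelial markers Krt8 (570.0, 495 and 367 CPM) and Cldn3 (149, 112 and 76.2 CPM) had it too, while Cdh1 and Krt19 did not. Its share over all genes was not counted. Adult crypts went through chelation and shaking before the enzyme digestion that the embryonic tissue also received. The part of tissue handling in these changes was not tested. Without ISC replicate 1, the rises of Herpud1 and Atf4 at ISC against E14.5 were still called. That fit does not bear on handling, since the remaining ISC sums, 5493 and 4626 CPM, also lie above every E14.5 sum.

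**Figure D4:**
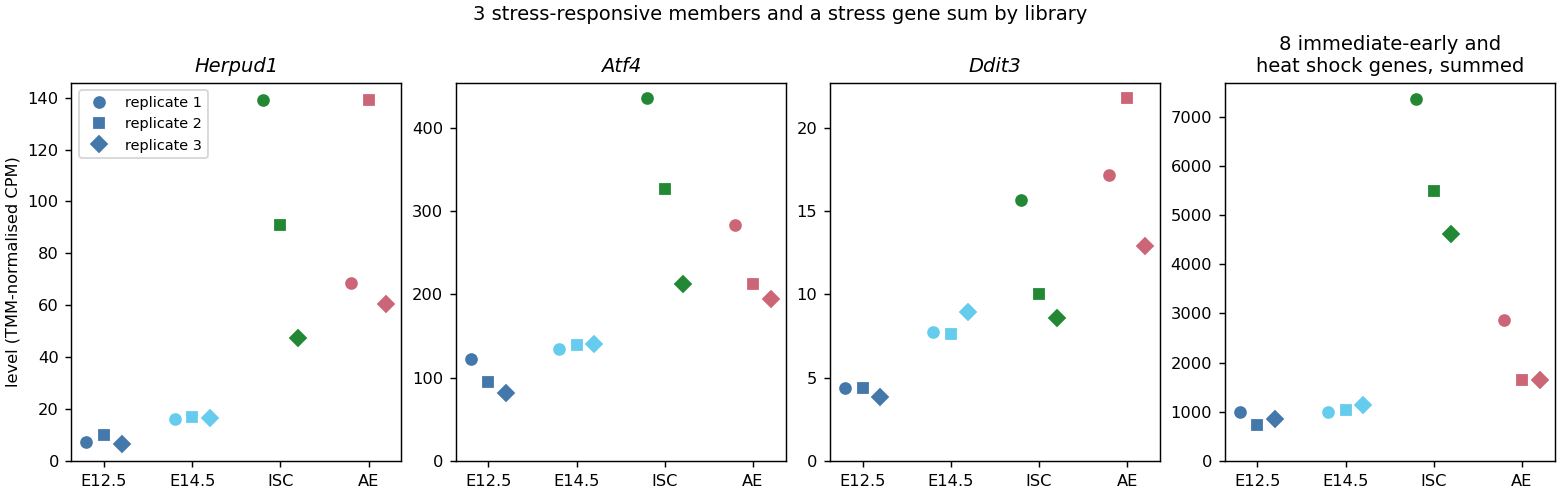
Levels by library of Herpud1, Atf4 and Ddit3 and of the sum of the 8 immediate-early and heat shock genes (TMM-normalised CPM, linear axes from 0), with replicates told apart by symbol. In ISC replicate 1 is highest and replicate 3 lowest in all 4 panels, with sums of 7355, 5493 and 4626 CPM. Some epithelial markers share this order.

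Creb3l3, the lipid-related factor, had the largest change of the 10 genes at both adult steps. It had 1.76, 1.55 and 2.38 CPM in E12.5 and 1.77, 2.09 and 1.93 in E14.5. It had 20.8, 27.4 and 9.57 CPM in ISC and 255, 429 and 576 in AE. The embryonic stages overlapped, ISC stood above both, and AE stood above ISC. The difference between the embryonic stages did not pass (log2 0.02, SE 0.42, adjusted p = 0.977). Creb3l3 rose 9.87-fold at ISC against E14.5 (log2 3.30, SE 0.37, adjusted p = 3.6e-06) and 21.9-fold at AE against ISC (log2 4.45, SE 0.35, adjusted p = 9.02e-08). Per kb of exon it was the lowest member in E14.5, at 0.841 ± 0.0693 CPM per kb, and second only to Hspa5 in AE, at 183.0 ± 70.2.

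The sum of the enterocyte markers followed Creb3l3 within AE. AE replicate 1 held both the lowest Creb3l3 level, 255 CPM, and the lowest enterocyte marker sum, 38489 CPM. Replicate 3 held the highest of both. Most single markers, such as Alpi and Fabp1, were also highest there, but Anpep (17613 CPM) and Apoa1 (7612 CPM) were highest in AE replicate 2. Of 10 enterocyte markers, 10 rose at AE against ISC, where 32.6% of all genes rose. The marker sums ran from 1911 to 3010.2 CPM in ISC. The part of enterocyte content in the Creb3l3 change was not tested.

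Of 13 lipid and liver genes linked to Creb3l3, 9 passed the expression filter. At E14.5 against E12.5 all 9 rose, beside 23.6% of all genes, with Creb3l3 itself not called. At ISC against E14.5, 7 rose and 0 fell, beside 30.2% and 30.6% of all genes. At AE against ISC, 6 rose and 1 fell, beside 32.6% and 35.2%. Ppara, a nuclear receptor for fatty acids, rose at every step, from 8.45 ± 1.51 CPM in E12.5 to 36.5 ± 1.41, 80.8 ± 5.88 and 194 ± 36.6. Apoa4, an apolipoprotein of chylomicrons, rose from 29.7 ± 20.4 CPM in ISC to 3692 ± 2235 in AE (adjusted p = 1.93e-07), although 60.9% of its 50-base stretches also occur in an overlapping gene model. Apoa1 rose 105-fold at the same step.

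The genes most like Creb3l3 over the 12 libraries were Gpr133 (root mean square difference 0.33), Sp100 (0.45), Bco2 (0.45), Reg3a (0.46) and Tm6sf2 (0.46), where the median over 12124 genes was 3.08. Tm6sf2, which acts in the lipidation of secreted lipoproteins, had mean levels of 2.85, 2.4, 20.8 and 342 CPM from E12.5 to AE. Bco2, a carotenoid-cleaving enzyme, had 0.277, 0.825, 9.35 and 161 CPM. Gpr133 had 0.0214, 0.0231, 4.47 and 74.4 CPM, and Sp100 had 0.0515, 0.0249, 4.61 and 127. Reg3a had 0.0, 0.0325, 2.83 and 149.9 CPM.

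Inside the divide in multi-aligned reads, most members again were higher in the adult groups. At ISC against E12.5, 8 rose and 1 fell, beside 68.5% of all genes called (33.9% higher and 34.6% lower), with a median log2 change of 1.34 against -0.01 for all genes. At AE against E14.5, 9 rose and 0 fell, beside 78.2% called (36.7% higher and 41.5% lower), with a median of 1.47 against -0.12. The groups did not overlap for 10 and 9 of the 10, against 73.9% and 81.5% of all genes. Ern2 was 53.4-fold higher in ISC than in E12.5 and 7.3-fold higher in AE than in E14.5. Creb3l3 was 10.0-fold and 216-fold higher in these comparisons. Herpud1 was 11.7-fold and 5.38-fold higher, and Atf4 3.26-fold and 1.68-fold, the last lost under upper-quartile scaling (adjusted p = 0.0524). Over the whole span, AE against E12.5, 9 rose and 0 fell, beside 82.1% called (38.4% higher and 43.7% lower), and Hspa5 was again the one not called. At that span 9 of the 10 did not overlap, against 82.5% of all genes.

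The order of the levels was AE, ISC, E14.5 and E12.5 for Xbp1, Ern1, Ern2, Ddit3, Dnajb9 and Creb3l3. For Herpud1 and Atf4 it was ISC, AE, E14.5 and E12.5, where the difference of ISC and AE did not pass the test. For Edem1 it was AE, E12.5, E14.5 and ISC, where AE differed from E12.5 by the test, and ISC did not overlap with E14.5 but did not pass. For Hspa5 it was AE, E14.5, E12.5 and ISC, and no difference between neighbours passed the test. The ratio of the highest to the lowest mean ran from 1.64 for Hspa5 to 116 for Ern2 and 221 for Creb3l3.

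The other sensors did not share 1 course. Eif2ak3, which encodes PERK, had means of 15.9 ± 0.837, 25.7 ± 0.708, 21.2 ± 3.76 and 46.6 ± 2.7 CPM from E12.5 to AE. It rose at E14.5 against E12.5 (1.62-fold, adjusted p = 0.000491) and at AE against ISC (2.21-fold, adjusted p = 2.7e-06). Atf6 had 154, 136 and 146 CPM in the E12.5 libraries, then means of 79.0 ± 0.981, 114 ± 8.0 and 163 ± 8.24 from E14.5 to AE. It fell 1.84-fold between the embryonic stages (adjusted p = 4.34e-06), the step at which Ern2 rose 16.1-fold, and then rose at each later step.

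Among 91 further genes in 5 lists (sensors and membrane-bound factors, chaperones, degradation, translocation, and the PERK branch), all passed the filter. At E14.5 against E12.5, 39 rose and 10 fell, where 23.6% of all genes rose and 25.6% fell. At ISC against E14.5, 19 rose and 31 fell, beside 30.2% and 30.6% of all genes. Of the 10 members 6 rose there. At AE against ISC, 59 rose and 10 fell, beside 32.6% and 35.2%. Their medians were 0.29, -0.16 and 0.57 on the log2 scale, beside -0.02, -0.00 and -0.05 for all genes. Inside the divide, 26 rose and 24 fell at ISC against E12.5, beside 33.9% and 34.6% of all genes. At AE against E14.5, 54 rose and 14 fell, beside 36.7% and 41.5%. Under upper-quartile scaling the latter counts were 44 and 24, and that scaling moved the median of all genes by -0.24.

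Chaperones moved with Hspa5 at the adult step. Of 21 chaperones and folding enzymes, 18 rose and 0 fell at AE against ISC, beside 32.6% and 35.2% of all genes. At ISC against E14.5, 1 rose and 10 fell, beside 30.2% and 30.6%. P4hb, a protein disulfide isomerase, rose 6.98-fold to 2582 ± 299 CPM in AE (adjusted p = 1.14e-09). At E14.5 against E12.5, 6 rose and 0 fell, beside 23.6% and 25.6% of all genes. In a fit of those 6 libraries alone 12 rose and 1 fell. The shares of all genes at each step also stand beside the degradation and translocation counts that follow. Of 19 degradation genes, the group of Edem1 and Herpud1, 15 rose and 1 fell at AE against ISC. At ISC against E14.5, 5 rose and 4 fell, or 5 and 7 with DESeq2, and Syvn1 rose 2.17-fold there (adjusted p = 3.1e-07). Of 19 translocation genes, 10, 3 and 13 rose and 0, 8 and 1 fell at the successive steps. The first count was 5 or 6 without each of 5 embryonic libraries in turn. Sec11c, a signal peptidase subunit, rose 6.69-fold at ISC against E14.5.

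The PERK branch, to which Atf4 and Ddit3 belong, had no prevailing direction at the adult step. Of 22 genes, 11 rose and 2 fell at E14.5 against E12.5, where 23.6% of all genes rose and 25.6% fell. At ISC against E14.5, 6 rose and 7 fell, near the 30.2% and 30.6% of all genes. At AE against ISC, 7 rose and 7 fell, near the 32.6% and 35.2% of all genes. The last counts were 7 and 11 under upper-quartile scaling. The median of the list, -0.06 beside -0.05 for all genes, turned to 0.02 under relative log expression scaling. Atf3, a stress-induced factor, had 922, 593 and 460.2 CPM in the ISC libraries against 37.2 ± 2.8 in E14.5, a 17.7-fold rise (adjusted p = 2.32e-05). Its highest and lowest ISC libraries were those of Atf4. Slc3a2, an amino acid transporter subunit, rose 3.67-fold in AE against ISC, and Phgdh, of serine synthesis, fell 4.8-fold, with 47.8% of its stretches shared with another gene.

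**Figure D5:**
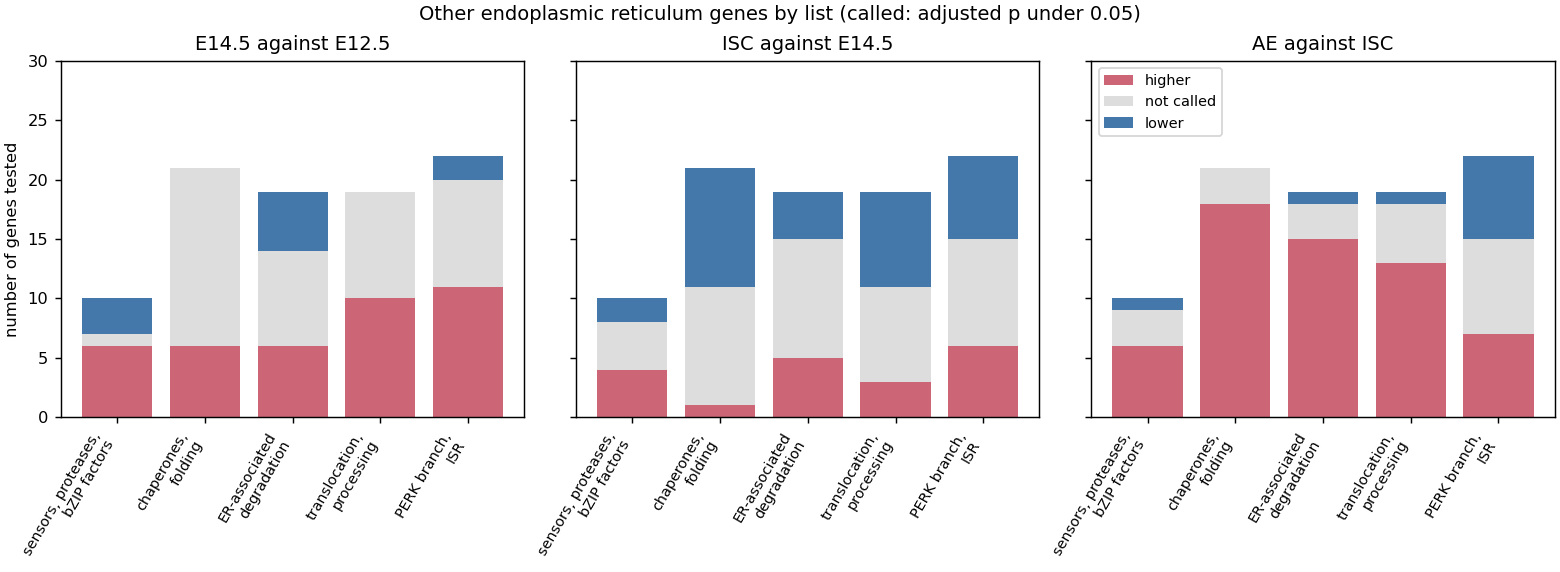
Number of genes called higher, called lower and not called in 5 lists of other endoplasmic reticulum genes at the 3 steps. In the chaperone list 10 of 21 are lower at ISC against E14.5 and 18 of 21 are higher at AE against ISC. Over all genes these shares were 30.6% and 32.6%.

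Some markers of other cells rose at the same steps as members, and others were low throughout. The 10 mesenchyme and muscle markers all rose at E14.5 against E12.5 and all fell at ISC against E14.5, with sums per library of 24.5 to 34.3, 251 to 327, 4.7 to 6.59 and 10.2 to 12.7 CPM from E12.5 to AE. The part of these cells in the Herpud1 and Ddit3 changes at E14.5 was not tested. The plasma cell genes Igj, Mzb1 and Tnfrsf17, from a cell type rich in Xbp1, had means from 0.0 to 0.765 CPM in all groups, with Tnfrsf17 at 0 in ISC. Pou2af1, from the same list, had means under 1 CPM in E12.5 and E14.5 but not in ISC and AE. At ISC against E14.5, 2 of the 4 plasma cell markers tested rose and 1 fell, beside 30.2% and 30.6% of all genes. The sums of the 6 plasma cell markers, from 51.5 to 661 CPM, rested on Prdm1 and Sdc1, which epithelial cells also express. Sums of 8 immune markers stayed within 2.24 to 10.8 CPM and those of 5 endothelial markers did not pass 5.83 CPM. Ctrb1, a pancreatic protease of another highly secretory cell, rose from 2.92 ± 3.03 CPM in E12.5 to 70.0 ± 51.0 in E14.5 (adjusted p = 4.98e-05) and was at 0.156 ± 0.143 in ISC. The 12 pancreas, liver and stomach markers summed to 115 to 152 CPM in the E12.5 libraries and 147 to 253 in those of E14.5. The sums were 21.1 to 37.4 CPM in ISC and 97.1 to 136 in AE. Afp, a fetal liver and gut protein, rose from 0.198 ± 0.0938 CPM in ISC to 104 ± 20.9 in AE (adjusted p = 9.67e-11), the step at which 8 members rose. The part of these cells in the member changes was not tested.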

How the data were processed

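RNA-seq of 12 sorted cell libraries was used as raw counts per gene symbol, deposited by the authors as 1 file per library without normalisation. Build mm9, STAR 2.3.1z13, HTSeq 0.6.1p1, SAMtools 1.2, bcl2fastq 1.8.4 and DESeq2 1.6.3 are listed in the submitters' processing notes. Neither annotation nor strandedness was given in the sources used here, which leaves overlapping genes unresolved. Per the labels' protocols, 50 ng of RNA from 50000 sorted cells was amplified. The 5 closing rows that name no gene were left out, of which reads outside genes made up 33.4% to 58.1%.

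Groups were taken from the titles. The counts were tested with edgeR 4.0.16 (R 4.3.3; TMM factors 0.696 to 1.16, expression filter, prior count 0.125, quasi-likelihood F tests, 1 coefficient per group, no covariate). Alternatives were other scalings, DESeq2 1.42.0, limma-voom (limma 3.58.1), no filter, fits of 2 groups, a replicate block and leaving out each library. Replicate pairs differed by more than sampling noise. In simulated data with 200 changed genes per comparison, 86.6% to 92.7% of 3-fold and 18.0% to 23.2% of 1.5-fold changes were recovered. Over the 6 comparisons, 3.48% to 8.55% of calls were false. In the real data 49.2% to 82.1% of genes were called, so these rates cannot be carried over to them. Counting floors (3 counts, 0.0585 to 0.343 CPM per library) cover counting error only.

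The members and lists were chosen with earlier results of these data known. Beside the 10 members, up to 2 genes per list and comparison with the largest called change and at least 5 CPM were named, with Eif2ak3, Atf6, the 5 genes most like Ern2 or Creb3l3 (log2 of CPM plus 0.5) and markers of other cells. The ERSE genes, Fcgbp, Agr2 and genes named with a count of 1 were added after their values were seen. A single gene result is not reported here; counts over its list include it. Promoters are RefSeq's, and exon lengths and shared 50-base stretches are from a GRCm38 annotation.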

Additional observations from a re-analysis of the deposited data

How the results depend on the processing

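Of the 60 log2 changes of the 10 genes (6 comparisons), 46 kept their side of the threshold under all 19 alternatives, and 40 of 45 called changes held under all of them. No called change reversed. Leaving out 1 library moved the number of members called from 4 to between 2 and 5 at E14.5 against E12.5, with 2 without E12.5 replicate 3 and 2 without E14.5 replicate 2. The ranges elsewhere were 6 to 8 (ISC against E14.5), 7 to 9 (AE against ISC), 8 to 10 (ISC against E12.5) and 9 to 10 (AE against E14.5 and AE against E12.5). For the 91 further genes the ranges were 37 to 56, 47 to 56, 62 to 70, 46 to 57, 62 to 71 and 72 to 78 in the order of the comparisons named here, starting from E14.5 against E12.5. The causes were not tested. Replicate numbers were not stated to pair the samples. Correlations of deviations between libraries of the same number ran from -0.106 to 0.144, with 0.035, 0.144 and 0.0716 for ISC and AE. Such values cannot exclude pairing. With the replicate block the members called were 4, 6, 9, 9, 9 and 9, with Atf4 called at E14.5 against E12.5 (adjusted p = 0.0218) and AE against ISC (adjusted p = 0.0207) and Xbp1 not called at E14.5 against E12.5 (adjusted p = 0.0625). Depth limits Ern2 and Creb3l3 in the embryo, at 12 to 20 counts for Ern2 in E12.5.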

Other observations

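Several chaperone genes, chosen after their values were seen, shared the low level of Hspa5 in AE replicate 3. Hsp90b1, a glucose-regulated chaperone, had 2498, 2113 and 1441 CPM in the AE libraries. Pdia4 had 218, 171 and 118 CPM, and Pdia6, a further disulfide isomerase, had 169.5, 146 and 75.4. P4hb went otherwise, with 2240.2, 2798 and 2708 CPM. That library had the lowest depth, 12587626 gene counts, and the highest enterocyte marker sum, 89697 CPM.

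The relatives of Creb3l3 took courses of their own. Creb3l1, known from goblet cells, rose 6.01-fold at E14.5 against E12.5 (adjusted p = 8.98e-08) and 2.22-fold at ISC against E14.5 (adjusted p = 2.11e-05), and had 46.8 ± 5.96 CPM in AE. Creb3l2, which acts in secretory capacity, fell 2.18-fold between the embryonic stages (adjusted p = 0.00456) and rose 6.14-fold at AE against ISC (adjusted p = 2.12e-06). Its AE levels of 68.8, 175 and 199.6 CPM were lowest and highest in the same libraries as those of Creb3l3. Creb3 rose 3.17-fold at AE against ISC (adjusted p = 2.39e-07).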
